A study of Homo sapiens with 2 samples.

Results

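Non-muscle cells pull on their surroundings with the same kind of machinery that muscle uses, built from actin filaments and myosin II. A myosin II motor holds heavy chains, which split ATP, and essential and regulatory light chains, which steady and switch them; caldesmon lies along the filament and holds the motor back, while alpha-actinins, filamin A, vinculin and supervillin crosslink the filaments or tie them to adhesion sites and the membrane. Several of these genes make a muscle form and a non-muscle form by alternative splicing or alternative start sites, which long reads can separate within single cells.

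The 9 genes described here are MYL6 (ENSG00000092841) and MYL9 (ENSG00000101335), light chains; MYH9 (ENSG00000100345), the heavy chain of non-muscle myosin IIA; CALD1 (ENSG00000122786), caldesmon; ACTN1 (ENSG00000072110) and ACTN4 (ENSG00000130402), alpha-actinins; FLNA (ENSG00000196924), filamin A; VCL (ENSG00000035403), vinculin; and SVIL (ENSG00000197321), supervillin. They were taken by gene name from the authors' transcript table, and each matched 1 of the 57110 gene entries, of which 17806 had a count. The counts come from 1 PromethION single-cell library, in which a nanopore instrument read whole cDNA molecules, made from equal parts of SK-OV-3, IGROV1 and COV504, established lines from ovarian tumours, with no treatment named. An Illumina library of the same pool gave only a list of cell barcodes here, and all 2462 barcodes were on both lists. No line or batch has a replicate, so no test between lines was possible. Every interval is a 95% interval for counting error alone, and reads may not be independent molecules.

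Barcodes were sorted into lines by 10 marker genes, none of them among the 9 genes. A barcode with at least 1000 counts went to the group whose markers held at least 75% of its marker counts. ERBB2, NNMT, TSPAN1 and DHRS2 gave 648 SK-OV-3-like barcodes with 3442383 counts. RARRES2 and TMEM100 gave 473 RARRES2-high barcodes with 3377992 counts, and FOLR1, CLDN3, DEFB1 and CXCL14 gave 765 FOLR1-high barcodes with 4514999 counts. The median depth was 4953, 6262 and 5289 counts per barcode in that order. A further 243 barcodes passed the depth limit without a group, 35 of them with no marker count and 208 with a leading group under 75%, and 333 had fewer than 1000 counts. Close to the 75% limit, the leading group held 75 to 85% in 223 barcodes and 65 to 75% in 97.

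The label SK-OV-3-like was checked on genes beside ERBB2 on chromosome 17, which this line carries in extra copies. MIEN1 stood at 528 CPM (counts of a gene per 1000000 counts of its line) in the SK-OV-3-like barcodes, 143 in the RARRES2-high and 102.6 in the FOLR1-high barcodes, and STARD3 at 214, 22.2 and 13.3 CPM. PGAP3 stood at 22.9, 2.37 and 1.77 CPM. GRB7 separated the FOLR1-high line least, at 56.4, 2.66 and 28.8 CPM. The other groups are called by their leading genes, since no marker tied them to a named line. The epithelial markers EPCAM, KRT8, KRT18 and KRT19 summed to between 1568 and 7348 CPM per line. The smooth muscle markers ACTA2, CNN1, MYH11, DES and LMOD1 summed to 1.16, 1.78 and 5.76 CPM, with DES at 0 in all 3 lines. Fibroblast markers summed to 97.9, 24.0 and 3.99 CPM in the same order of lines. Leukocyte markers summed to 0.290, 34.9 and 1.11 CPM and endothelial markers to 1.45, 31.4 and 5.76 CPM. In the RARRES2-high line CD74 stood at 34.6 CPM and CDH5 at 30.5 CPM. Mitochondrial genes held 2.93%, 3.11% and 7.07% of the counts of the SK-OV-3-like, RARRES2-high and FOLR1-high barcodes. Ratios on a total without these genes and the ribosomal protein genes are given below where a direction turned.

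The light chains of myosin II stood at opposite ends of the set. MYL6, the essential light chain of smooth muscle and non-muscle myosin, was nearly level, at 1864 CPM in the SK-OV-3-like line (interval 1819 to 1910.3), 2032 in the RARRES2-high line (1984 to 2081) and 1734 in the FOLR1-high line (1696 to 1773). It was found in 98.6% to 99.2% of the barcodes of each line. MYL9, a regulatory light chain typical of smooth muscle, had the widest range of the 9 genes. It stood at 1.45 CPM in the SK-OV-3-like line (0.472 to 3.39, 5 counts), 23.4 in the RARRES2-high line (18.5 to 29.1, 79 counts) and 90.6 in the FOLR1-high line (82.0 to 99.8, 409 counts). The order FOLR1-high, RARRES2-high, SK-OV-3-like had no overlap of intervals, and the FOLR1-high level was 3.87 times the RARRES2-high level (3.04 to 4.99). Over the 5 SK-OV-3-like counts the ratio was 62.4 (26.5 to 193). A MYL9 count was present in 257 of 765 FOLR1-high barcodes (33.6%), 54 of 473 RARRES2-high barcodes (11.4%) and 5 of 648 SK-OV-3-like barcodes (0.772%).

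Those last 5 counts were set beside 3 genes listed as a gauge of stray RNA. CDKN2A, a gene that SK-OV-3 is known to lack, had 88 counts in the FOLR1-high line (19.5 CPM) and 1 count in the SK-OV-3-like line (0.290 CPM), in 0.154% of barcodes (0.00391 to 0.857%). Of the other gauge genes in the SK-OV-3-like line, ESRP1 had 0 counts and CDH1 had 29 (8.42 CPM, in 4.17% of barcodes). The MYL9 share of 0.772% (0.251 to 1.79%) overlapped that of CDKN2A, so that the 5 counts could not be told apart from stray RNA, and the ratio of 62.4 is one of counts, not a measured fold of expression. After thinning in expectation to 2000 counts per barcode, which leaves 606, 443 and 733 barcodes of the 3 lines, MYL9 was expected in 0.300%, 4.16% and 15.1% of them. The order of the lines was the same at both depths.

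MYH9 carries the motor of non-muscle myosin IIA. It stood at 184 CPM in the SK-OV-3-like line (169.8 to 199), 208 in the RARRES2-high line (193 to 224) and 54.3 in the FOLR1-high line (47.7 to 61.5). The first pair had overlapping intervals, and the FOLR1-high line was the low one, 3.84 times below the RARRES2-high line (3.32 to 4.46) and 3.39 times below the SK-OV-3-like line (2.92 to 3.94). The FOLR1-high line thus had the highest MYL9 and the lowest MYH9 level. MYH10, the heavy chain of non-muscle myosin IIB, was highest in the FOLR1-high line, where MYH9 was lowest, with 39.5, 53.9 and 103.2 CPM in the SK-OV-3-like, RARRES2-high and FOLR1-high lines.

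**Figure D1:**
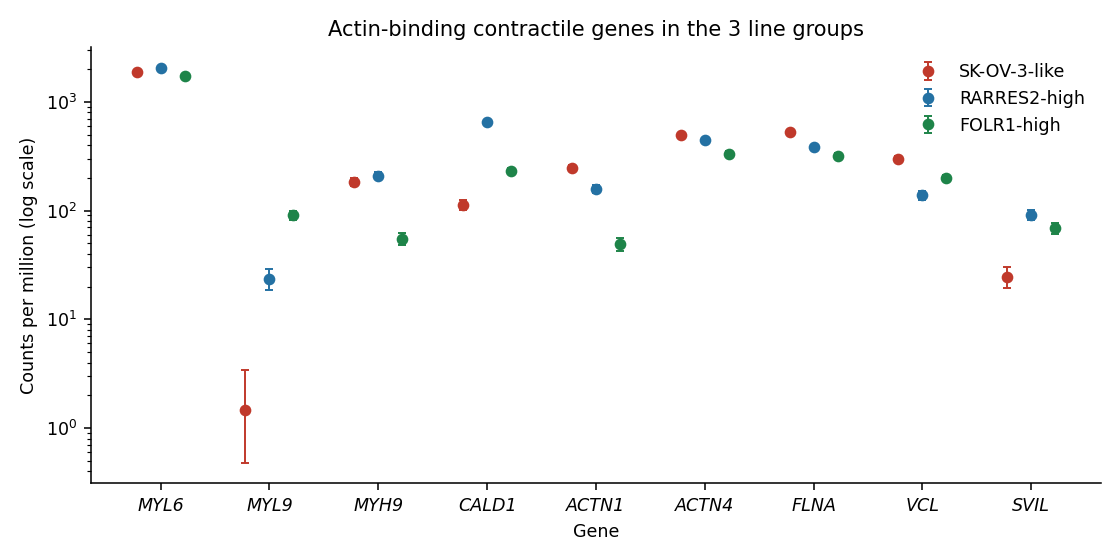
Level of each of the 9 genes (x axis) in CPM on a log axis, by line; points are the summed counts of 1 library and bars are exact Poisson 95% intervals. MYL9 runs from 1.45 CPM in the SK-OV-3-like line to 90.6 CPM in the FOLR1-high line, while the 3 points of MYL6 lie between 1734 and 2032 CPM.

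Caldesmon, the brake on the thin filament, was highest in the RARRES2-high line. CALD1 stood at 649 CPM there (622 to 677), against 229 in the FOLR1-high line (215 to 244) and 113 in the SK-OV-3-like line (102 to 125), with no overlap. The RARRES2-high level was 5.76 times the SK-OV-3-like level (5.17 to 6.43) and 2.83 times the FOLR1-high level (2.63 to 3.05). The median RARRES2-high barcode had 3 CALD1 counts, and 89.0% had at least 1. In the SK-OV-3-like line 38.1% had 1 or more, and in the FOLR1-high line 55.3%.

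Of the alpha-actinins, which bundle filaments in stress fibres and at adhesions, ACTN1 separated the lines and ACTN4 did so far less. ACTN1 stood at 246 CPM in the SK-OV-3-like line (229 to 263), 159 in the RARRES2-high line (146 to 173) and 48.9 in the FOLR1-high line (42.7 to 55.8). These 3 levels did not overlap, and the ends differed 5.02 times (4.32 to 5.85). ACTN4 stood at 492 CPM (468 to 516), 443.8 (422 to 467) and 334 (317 to 351) in the same order. The SK-OV-3-like and RARRES2-high levels of ACTN4 lay next to each other, and their direction depended on the scaling: the log2 ratio was 0.15 on CPM and -0.06 once the median ratio of all genes was set to 1.

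Of the other crosslinkers and adhesion proteins, SVIL had the widest range and FLNA the narrowest. FLNA, which crosslinks filaments into a gel, stood at 525 CPM in the SK-OV-3-like line (501 to 549.7), 380.4 in the RARRES2-high line (359.9 to 402) and 318 in the FOLR1-high line (302 to 335). VCL, which couples talin to actin at adhesions, stood at 297 CPM (279 to 316), 139 (126 to 152) and 200 (187 to 213), so that the RARRES2-high line was the low one, 2.15 times below the SK-OV-3-like line (1.92 to 2.40). SVIL, which links actin and myosin II to the membrane, stood at 24.4 CPM in the SK-OV-3-like line (19.5 to 30.2), 91.2 in the RARRES2-high line (81.3 to 102) and 68.9 in the FOLR1-high line (61.4 to 77.0). The SK-OV-3-like line was 3.74 times below the RARRES2-high line (2.93 to 4.81). SVIL was found in 11.9%, 41.9% and 29.02% of the barcodes of the 3 lines.

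The levels were then set against all genes, calling a ratio of 2 or more a difference among genes with at least 50 counts in the pair. Between the SK-OV-3-like and RARRES2-high lines 4 of the 9 genes passed, beside 34.1% of 9137 genes. VCL was higher in the SK-OV-3-like line, beside 21.1% of all genes, and MYL9, CALD1 and SVIL were higher in the RARRES2-high line, beside 13.0%. Against the FOLR1-high line, the SK-OV-3-like line had 5 genes past the limit, beside 35.3% of 9237 genes. MYH9 and ACTN1 were higher in the SK-OV-3-like line (beside 26.0% of all genes), and MYL9, CALD1 and SVIL were higher in the FOLR1-high line (beside 9.36%). Between the RARRES2-high and FOLR1-high lines 4 genes passed, beside 34.8% of 9100 genes. MYH9, CALD1 and ACTN1 were higher in the RARRES2-high line, beside 21.9%, and MYL9 in the FOLR1-high line, beside 12.9%. With 9 genes, these counts were not set apart from the share over all genes.

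The median gene was itself not level between lines. The median log2 ratio over all genes tested was 0.21 for SK-OV-3-like over RARRES2-high, 0.45 for SK-OV-3-like over FOLR1-high and 0.20 for RARRES2-high over FOLR1-high. Relative to that median, ACTN1 was at 1.88 and MYH9 at 1.31 in SK-OV-3-like over FOLR1-high on the log2 scale, and MYL9 was at -6.41. VCL in SK-OV-3-like over RARRES2-high dropped from 1.10 to 0.89 and so below the 2-fold limit. MYL6 turned from 0.10 to -0.34 in SK-OV-3-like over FOLR1-high. A total without mitochondrial and ribosomal protein genes turned MYL6 to -0.24 in that pair and to -0.07 in RARRES2-high over FOLR1-high, where FLNA turned from 0.26 to -0.04. No direction is therefore given for MYL6, for FLNA in the last pair, or for ACTN4 in the first.

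**Figure D2:**
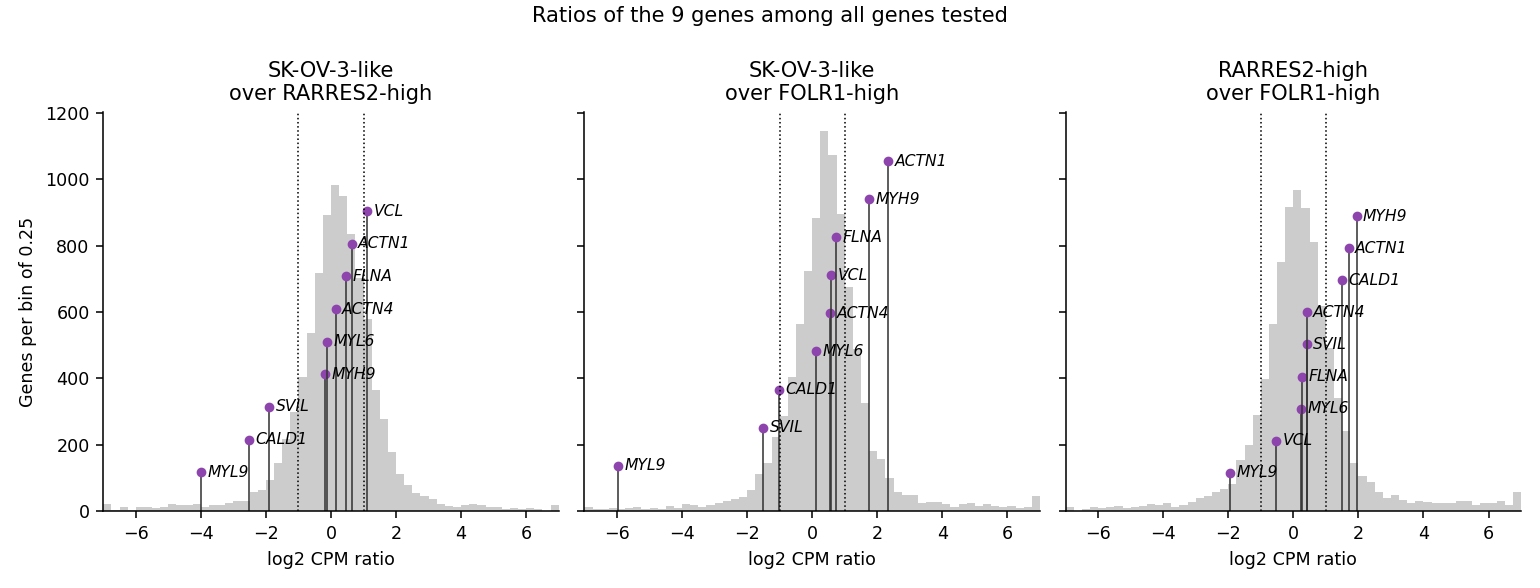
Log2 CPM ratio of the 9 genes (purple points, at arbitrary heights) over the number of all tested genes per bin of 0.25 (grey bars), for each pair of lines; dotted lines mark 2-fold, and the end bins also hold genes beyond the axis. MYL9 lies at -4.01, -5.96 and -1.95 from left to right, and MYL6 lies between the dotted lines in each panel.

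Transcript use within each gene was compared next, since the same level can hide different proteins. The share of a transcript is its part of the estimated counts of its gene, and a difference of 20 percentage points or more was called. Reads that fitted several transcripts had been shared between them, which limits some genes. In barcodes with 1 count of the gene, that count fell on 1 transcript in 100% of cases for MYH9, 99.3% for ACTN4, 83.9% for MYL6, 68.3% for ACTN1, 62.2% for MYL9, 57.1% for SVIL and 52.8% for CALD1, but in 12.3% for VCL and 0.465% for FLNA. The MYL6 value rests on 62 barcodes. Over all counts of a gene, transcript estimates that were whole numbers held 41.3% for MYL6, 20.5% for CALD1 and 40.0% for VCL. Exon shares were therefore also read from barcodes with 1 count of the gene that was not shared between transcripts with and without the exon, a reading added after seeing the data. MYH9 and ACTN4 used 1 transcript almost alone, each at 99.9% or more in every line.

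Between the SK-OV-3-like and RARRES2-high lines 1 of 8 compared genes, CALD1, passed 20 points, beside 2.45% of 4238 genes. Between the SK-OV-3-like and FOLR1-high lines MYL6 alone of the 8 passed, beside 2.21% of 4471 genes. Between the RARRES2-high and FOLR1-high lines CALD1 and MYL6 passed of 9, beside 3.26% of 4115 genes. MYL9 was not compared with the SK-OV-3-like line, where it had 5 counts.

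MYL6, level in amount, differed in its last coding part. A 45-base exon at chr12:56160626-56160670 (GRCh38, plus strand, GENCODE release 29) lies before the last exon. When it is included, the reading frame ends at a stop codon that starts at base 27 of the exon, so 26 of its bases code. When it is skipped, the frame ends in the last exon. The coding sequence has 453 bases either way, so the alternatives differ in the final amino acids and not in length. The exon is shown in capitals after the coding bases spliced before it, as in transcript ENST00000550697, because its use carries the MYL6 result.
MYL6 45-base exon: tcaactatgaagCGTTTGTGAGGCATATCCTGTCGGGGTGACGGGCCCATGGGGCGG

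The 45-base exon was in 30.2% of MYL6 counts in the SK-OV-3-like line (29.1 to 31.3), 27.9% in the RARRES2-high line (26.8 to 28.9) and 4.69% in the FOLR1-high line (4.23 to 5.18). The first pair differed by little, and the FOLR1-high line was far lower. Among single counts that were not shared, 6 of 20, 5 of 14 and 2 of 26 held the exon in the same order. These few counts gave overlapping intervals. The transcript without it, ENST00000547649, had 62.4%, 63.3% and 86.5% of the counts. Its difference of 24.1 points between the SK-OV-3-like and FOLR1-high lines was equalled or passed by 53 of 4471 genes (1.19%).

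The exon was read in single barcodes with at least 10 MYL6 counts. The median share was 28.6% over 271 SK-OV-3-like barcodes and 23.1% over 298 RARRES2-high barcodes, and 0% over 331 FOLR1-high barcodes. Shares under 1% were found in 8 SK-OV-3-like (2.95%), 18 RARRES2-high (6.04%) and 190 FOLR1-high barcodes (57.4%). The highest single barcode of the FOLR1-high line stood at 46.4%, and 28 SK-OV-3-like and 39 RARRES2-high barcodes had 50% or more. Most of these SK-OV-3-like and RARRES2-high barcodes, which are 271 of 648 and 298 of 473 in their lines, were thus assigned both forms. The median number of MYL6 counts behind these shares was 14, 17 and 15 per barcode.

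**Figure D3:**
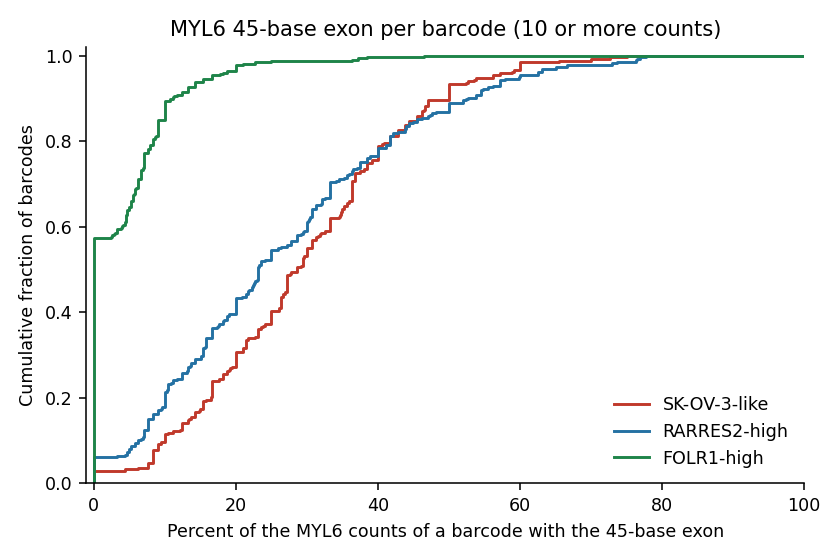
Cumulative fraction of barcodes with at least 10 MYL6 counts (y axis) by the percent of those counts with the 45-base exon (x axis), 1 curve per line. The FOLR1-high curve starts with 190 of 331 barcodes under 1%, while the medians of the SK-OV-3-like and RARRES2-high curves are 28.6% and 23.1%.

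CALD1 differed in its first exon. Its transcripts start at a group of upstream exons, the one used here ending at chr7:134779749, or far downstream, with a first exon that ends at chr7:134891673 (GRCh38, plus strand). The first coding exon differs with the start, so caldesmon begins with different amino acids. The beginnings of both coding sequences are shown, with the start codon in capitals. The downstream one lies at chr7:134891621-134891673 (ENST00000393118) and the one reached from the upstream exon at chr7:134867734-134867793 (ENST00000361901).
CALD1 downstream start: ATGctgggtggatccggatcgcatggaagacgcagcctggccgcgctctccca
CALD1 upstream start: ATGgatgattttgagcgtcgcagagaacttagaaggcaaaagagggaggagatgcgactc

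The upstream first exon held 69.6% of CALD1 counts in the RARRES2-high line (67.7 to 71.6), 12.9% in the SK-OV-3-like line (9.72 to 16.6) and 17.2% in the FOLR1-high line (14.9 to 19.6). The RARRES2-high line, which had the most CALD1, thus also had the highest upstream share. Among single counts not shared between starts, 22 of 49 RARRES2-high counts were upstream (44.9%), against 6 of 126 (4.76%) and 17 of 162 (10.5%) in the SK-OV-3-like and FOLR1-high lines. The gap between lines held in this reading, and the RARRES2-high share was lower in it. ENST00000393118 had 73.5% of CALD1 counts in the SK-OV-3-like, 26.0% in the RARRES2-high and 75.3% in the FOLR1-high line. Its differences of 47.5 and 49.3 points from the RARRES2-high line were equalled or passed by 7 of 4238 and 7 of 4115 genes.

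In barcodes with at least 5 CALD1 counts, the median upstream share was 78.2% over 172 RARRES2-high barcodes and 5.95% over 40 FOLR1-high barcodes. A share of 50% or more was found in 138 of the RARRES2-high and 2 of the FOLR1-high barcodes. Only 3 SK-OV-3-like barcodes had that depth, and 2 of these had 50% or more, above the share of their line. The upstream share of the 243 barcodes outside any group was 59.1% (55.4 to 62.7), between the lines.

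Other CALD1 exons were also estimated at different shares, which the unshared counts bore out less. A 78-base exon at chr7:134935688-134935765 was in 82.6% of counts in the SK-OV-3-like line, 53.0% in the RARRES2-high line and 84.1% in the FOLR1-high line. Single counts that were not shared gave 88 of 100, 14 of 16 and 121 of 136, which do not show that difference. The long form of the central exon, 1090 bases at chr7:134932988-134934077, marks the heavy caldesmon of smooth muscle. It was in 3.90% of SK-OV-3-like, 15.2% of RARRES2-high and 4.31% of FOLR1-high counts, and in 0 of 142, 2 of 42 and 5 of 184 single counts. The 403-base short form held the rest.

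MYL9 has a 162-base coding exon at chr20:36548032-36548193 (GRCh38, plus strand) that one transcript, ENST00000346786, leaves out, which shortens the coding sequence from 516 to 354 bases without a frame shift. It is shown in capitals between its spliced neighbours, as in ENST00000279022.
MYL9 162-base exon: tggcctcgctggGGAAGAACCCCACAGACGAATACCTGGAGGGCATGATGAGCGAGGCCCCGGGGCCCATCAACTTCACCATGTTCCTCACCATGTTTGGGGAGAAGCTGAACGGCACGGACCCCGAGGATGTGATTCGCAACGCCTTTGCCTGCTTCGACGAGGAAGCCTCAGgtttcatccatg

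The MYL9 exon was in 69.1% of counts in the RARRES2-high line (58.3 to 79.5) and 83.1% in the FOLR1-high line (79.1 to 86.6). Those intervals touched. Single counts that were not shared held it in 13 of 18 and 102 of 109 cases. The difference of 13.9 points was under the limit and was equalled or passed by 8.21% of genes.

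SVIL also starts at different places. Its upstream first exon ends at chr10:29735751 and its downstream first exon at chr10:29634420 (GRCh38, minus strand). The transcripts of the downstream start, ENST00000375398 and ENST00000355867, also carry extra coding exons that ENST00000375400 of the upstream start lacks, and they resemble archvillin, the muscle form of supervillin. Their coding sequences have 6546 and 6642 bases against 5364. A short one of these exons, of 81 bases at chr10:29535989-29536069, is shown in capitals between its spliced neighbours.
SVIL 81-base exon: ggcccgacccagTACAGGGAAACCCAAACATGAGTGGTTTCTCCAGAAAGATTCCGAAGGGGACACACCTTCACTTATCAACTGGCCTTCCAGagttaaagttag

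The downstream first exon held 32.5% of SVIL counts in the FOLR1-high line (27.3 to 38.0), 13.2% in the RARRES2-high line (9.72 to 17.6) and 15.5% in the SK-OV-3-like line (8.51 to 25.01). The 81-base exon had these same values, because the same transcripts carry both. Among single counts that were not shared, 13 of 81 FOLR1-high counts (16.05%), 2 of 85 RARRES2-high counts (2.35%) and 3 of 53 SK-OV-3-like counts (5.66%) were of the downstream start. The FOLR1-high line as a whole was highest in both readings, but its states differed, with 9.74% in the DEFB1-CD44 barcodes described further on. The difference of 19.3 points between the RARRES2-high and FOLR1-high lines was just under the limit and was equalled or passed by 3.60% of genes.

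**Figure D4:**
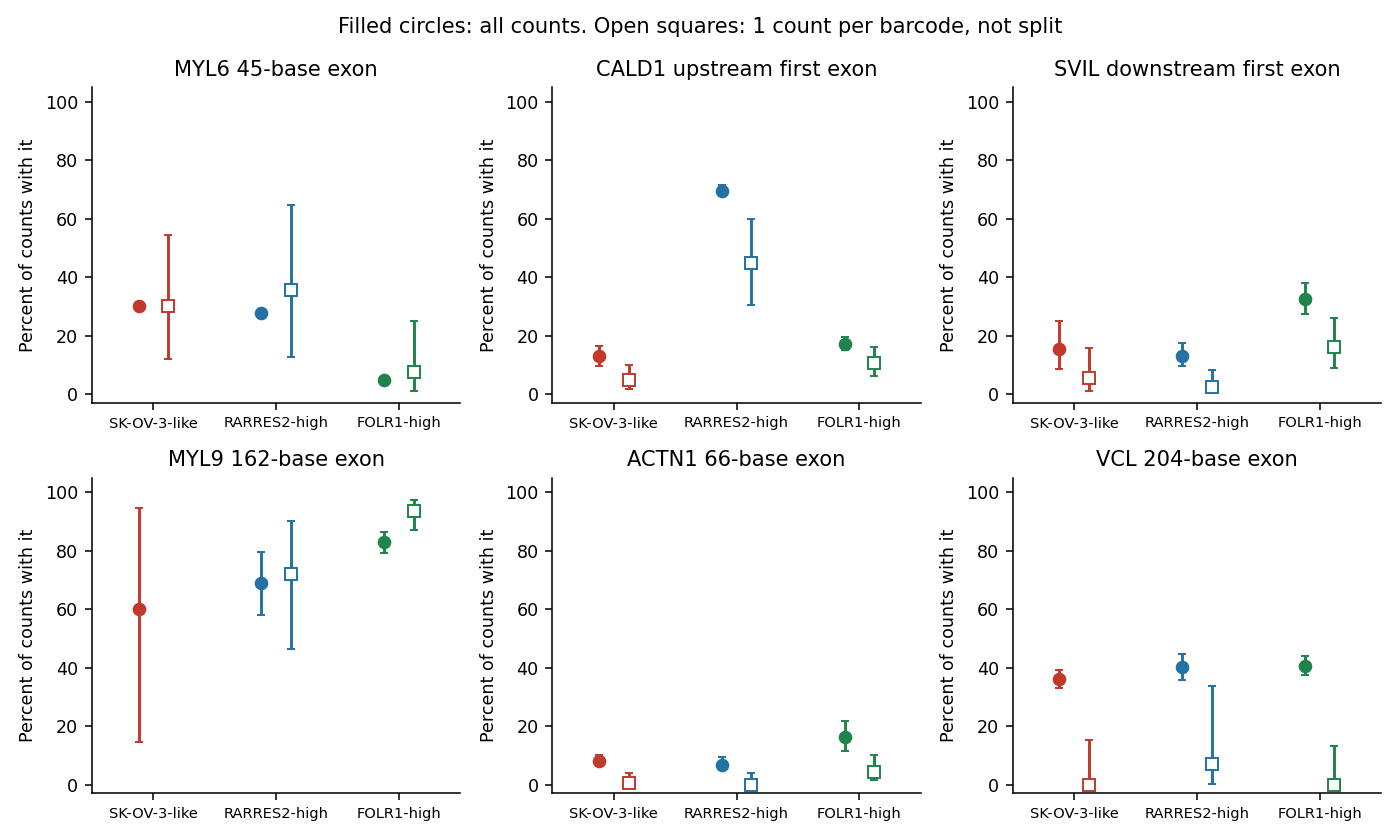
Percent of the counts of a gene with an exon or start (y axis), by line, with Clopper-Pearson 95% intervals; filled circles use all counts and open squares barcodes with 1 count that was not shared, left out where there were fewer than 10. The RARRES2-high line stands apart for the CALD1 upstream first exon (69.6% and 44.9%). The FOLR1-high line stands apart for the MYL6 exon among all counts (4.69%), while its open square (7.69%) overlaps the others in interval. The VCL circles between 36.2% and 40.8% have squares between 0% and 7.14%.

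ACTN1 encodes calcium-sensitive and calcium-insensitive forms through alternative exons of its calcium-binding region. The 81-base exon of non-muscle transcripts lies at chr14:68878989-68879069 and the 66-base exon of smooth muscle transcripts at chr14:68878458-68878523 (GRCh38, minus strand). ENST00000394419 holds both, and each is shown in capitals in that transcript.
ACTN1 81-base exon: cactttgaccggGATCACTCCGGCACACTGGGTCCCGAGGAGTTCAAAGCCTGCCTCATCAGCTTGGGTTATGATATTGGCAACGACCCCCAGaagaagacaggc
ACTN1 66-base exon: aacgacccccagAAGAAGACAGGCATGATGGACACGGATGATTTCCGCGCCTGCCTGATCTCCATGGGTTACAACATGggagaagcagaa

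The non-muscle transcript with the 81-base exon alone, ENST00000193403, had 91.8%, 93.2% and 83.5% of ACTN1 counts in the SK-OV-3-like, RARRES2-high and FOLR1-high lines. The 66-base exon was in 8.21% (6.40 to 10.2), 6.84% (4.91 to 9.39) and 16.5% (11.7 to 21.8). Single counts that were not shared held it in 1 of 137, 0 of 94 and 5 of 113 cases. The FOLR1-high line, lowest in ACTN1, had the highest share in both readings, and the largest transcript difference was 9.63 points.

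For VCL and FLNA the estimates did not settle which form was present. The 204-base exon at chr10:74111909-74112112 (GRCh38, plus strand) makes metavinculin, the form of vinculin found in muscle. It is shown in capitals between its spliced neighbours in ENST00000211998, because its estimated and its unshared counts differ most.
VCL 204-base exon: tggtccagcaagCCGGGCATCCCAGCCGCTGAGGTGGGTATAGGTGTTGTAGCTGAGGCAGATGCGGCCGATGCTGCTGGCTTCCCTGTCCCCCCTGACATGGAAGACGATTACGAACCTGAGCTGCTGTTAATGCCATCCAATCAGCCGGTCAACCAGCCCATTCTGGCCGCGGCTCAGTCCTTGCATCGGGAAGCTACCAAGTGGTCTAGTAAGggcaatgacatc

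The metavinculin exon was assigned 36.2%, 40.3% and 40.8% of VCL counts in the SK-OV-3-like, RARRES2-high and FOLR1-high lines. Of single counts that were not shared it was in 0 of 22, 1 of 14 and 0 of 26. Of the barcodes with at least 3 VCL counts, 98 of 152, 36 of 54 and 87 of 113 stood within 0.01 points of 50%, an even division between the transcripts. A share of metavinculin in these lines is therefore not given as measured. For FLNA, 2 of 430 single counts fell whole on 1 transcript, and a 24-base exon at chrX:154357251-154357274 was assigned 44.4%, 44.97% and 41.3% of the counts that span it. No difference between lines is read from either gene.

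Promoter sequence was searched for the CArG box, the motif bound by serum response factor (SRF), which switches on many contractile genes in muscle. RefSeq windows from 250 bases before to 50 after each gene start (GRCh38.p14) were given for 8 of the 9 genes, all but MYL9. Over 18 windows of these genes, 3 held the box, beside 454 of 35116 windows over all genes (1.29%). The box reads alike on both strands and was searched on both. The 3 matches are shown in capitals with the bases around them, read along the strand of the gene, since 1 of them lies before the downstream start of SVIL.
SVIL CArG box: cgagttcaggCCATAAAAGGcccgtcccat
ACTN1 CArG box: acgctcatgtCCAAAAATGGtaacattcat
FLNA CArG box: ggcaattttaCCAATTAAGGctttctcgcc

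The SVIL box lies at chr10:29634995-29635004, 33 bases before the downstream start, whose share was highest in the FOLR1-high line although the upstream start held most counts there too. The ACTN1 box lies at chr14:68977728-68977737, 171 bases before a start, and the FLNA box at chrX:154374719-154374728, 94 bases before a start. SRF itself was at 12.8, 10.7 and 7.97 CPM in the SK-OV-3-like, RARRES2-high and FOLR1-high lines. Of the genes listed as its partners, MKL1 was at 10.7 and 5.03 CPM in the SK-OV-3-like and RARRES2-high lines. MKL2 was at 13.7 and 13.0 CPM in these lines. MYOCD, the partner in muscle, was at 0 counts in all 3 lines. Transcripts annotated to begin within 10 bases of these RefSeq starts held 0.413%, 0.166% and 1.70% of ACTN1 counts and 34.3%, 32.6% and 32.5% of FLNA counts in the same order of lines, and FLNA counts were mostly shared between transcripts.

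The 9 genes were then placed among 75 other genes of the contractile and actin system, in 7 lists. Between the SK-OV-3-like and RARRES2-high lines 19 of 63 tested genes passed 2-fold (9 higher in the SK-OV-3-like line), beside the 34.1% of all genes. With the median ratio of all genes set to 1 it was 6 higher and 13 lower, beside 32.2%. FHL2, a LIM protein of adhesions, was 6.94 times and PPP1R12A, the targeting subunit of myosin phosphatase, 4.05 times higher in the SK-OV-3-like line, followed by CAPG, a filament capping protein, at 2.79 times and FERMT2, a kindlin of adhesions, at 2.72 times. PDLIM1, which binds alpha-actinin, was 5.45 times and TPM1, a tropomyosin, 4.67 times higher in the RARRES2-high line, followed by TAGLN, an actin-binding protein of smooth muscle, at 3.82 times and PPP1R14B, an inhibitor of myosin phosphatase, at 3.23 times. By list, 1 of 2 actins passed, 1 of 9 other myosin chains, 4 of 11 genes of the myosin switch, 3 of 8 of the thin filament, 7 of 19 crosslinkers and adhesion proteins, 2 of 11 of actin turnover and 1 of 3 of SRF and its partners. Of these, 3 switch, 4 crosslinker, 1 turnover and 1 SRF list genes were higher in the SK-OV-3-like line (beside 21.1% of all genes), and the others, the 3 thin filament genes among them, in the RARRES2-high line (beside 13.0%).

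Against the FOLR1-high line, the SK-OV-3-like line had 32 of 63 genes past 2-fold, 24 of them higher in the SK-OV-3-like line, beside 35.3% and 26.0% of all genes. With the median ratio of all genes set to 1, or without mitochondrial and ribosomal protein genes, 18 passed, 10 higher and 8 lower, beside 30.0% and 30.6% of all genes in these scalings. TPM2, a tropomyosin, was 52.0 times, CAPG 46.9 times, FHL2 13.8 times and ROCK1, a kinase that activates myosin II, 4.51 times higher in the SK-OV-3-like line. FLNC, the filamin of muscle, had 0 counts in the SK-OV-3-like line. With these set to the floor of 3 counts, it was 32.3 times higher in the FOLR1-high line. TLN2, a talin, was 8.51 times, PDLIM1 7.40 times and TPM1 4.40 times higher in the FOLR1-high line. By list, 4 of 9 other myosin chains passed (3 higher in the SK-OV-3-like line), 7 of 11 switch genes (6 higher), 4 of 7 thin filament genes (2 higher), 14 of 20 crosslinkers (10 higher), 3 of 11 turnover genes (3 higher), and none of 2 actins or 3 SRF list genes. Talins bind vinculin, and the other talin, TLN1, stood at 483 CPM in the SK-OV-3-like line, 227 in the RARRES2-high line and 157 in the FOLR1-high line.

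Between the RARRES2-high and FOLR1-high lines 28 of 64 genes passed, 24 of them higher in the RARRES2-high line, beside 34.8% and 21.9% of all genes. After setting the median to 1 it was 22 higher and 5 lower, beside 1573 and 1474 of the 9100 genes. TPM2 was 87.6 times, CAPG 16.8 times and PFN2, a profilin, 10.6 times higher in the RARRES2-high line. TAGLN had 60 counts there and 6 in the FOLR1-high line (1.33 CPM), a ratio of counts of 13.4 (5.79 to 37.9) against a level as low as that of MYL9 in the SK-OV-3-like line. By list, 4 of 9 other myosin chains passed (4 higher in the RARRES2-high line), 6 of 11 switch genes (4 higher), 5 of 8 thin filament genes (5 higher), 7 of 20 crosslinkers (5 higher), 6 of 11 turnover genes (6 higher), and none of 2 actins or 3 SRF list genes. MYLK, the kinase that switches on the regulatory light chains, was 6.70 times higher in the FOLR1-high line, at 93.2 CPM against 13.9, and at 34.6 in the SK-OV-3-like line. TLN2 was 4.31 times, PPP1R12A 2.48 times and FLNC 2.02 times higher in the FOLR1-high line than in the RARRES2-high line. MYLK and MYL9 were thus both highest in the FOLR1-high line. MYL12A and MYL12B, the regulatory light chains of non-muscle cells, stood at 548 and 608 CPM in the FOLR1-high line, 1051 and 1089.7 in the RARRES2-high line, and 969 and 989 in the SK-OV-3-like line.

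The FOLR1-high line was also split by state, with CXCL14 at 75% or more, or at 25% or less, of the CXCL14, DEFB1 and CD44 counts of a barcode with at least 3 of them. This gave 190 CXCL14 barcodes (median 4848 counts) and 143 DEFB1-CD44 barcodes (median 6754). Over the 4510 genes with at least 50 counts in the pair the median log2 ratio of the DEFB1-CD44 to the CXCL14 state was 0.06, and the interval lay wholly above 1 for 20.1% and wholly below it for 15.0% of them. Of the 9 genes 5 lay above and 1 below. Intervals narrow with counts, so a gene such as MYL6, with 1332 and 2305 counts, passes at smaller ratios than a gene with 50. The share over all genes is therefore not a like measure for the 9 genes. FLNA stood at 184 CPM in the CXCL14 state and 402 in the DEFB1-CD44 state, 2.18 times higher (1.83 to 2.60). MYL6 was 1.65 times higher in the DEFB1-CD44 state (1.54 to 1.76), VCL 1.51 times (1.24 to 1.85), MYH9 1.76 times (1.18 to 2.65) and ACTN1 1.75 times (1.12 to 2.79). SVIL went the other way, at 94.97 CPM in the CXCL14 state and 46.6 in the DEFB1-CD44 state, 2.04 times higher in the former (1.44 to 2.93). For MYL9, CALD1 and ACTN4 the interval of the ratio included 1, at 0.554 to 1.07, 0.745 to 1.15 and 0.980 to 1.33.

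Transcript shares between these states could be compared for 7 of the 9 genes, and 1 of them, SVIL, passed 20 points, beside 1.29% of 1633 genes. Its difference of 31.8 points was equalled or passed by 2 genes, itself included, and that of CALD1 was 19.97 points. The downstream start held 41.5% of 97 SVIL counts in the CXCL14 state (31.3 to 51.7) and 9.74% of 50 in the DEFB1-CD44 state (3.33 to 21.8). Single counts that were not shared gave 4 of 8 and 2 of 25. The high SVIL share of the FOLR1-high line therefore did not hold in its DEFB1-CD44 state, where the estimate lay below the 13.2% and 15.5% of the RARRES2-high and SK-OV-3-like lines, within a wide interval. The upstream start of CALD1 held 26.4% of 177 counts in the CXCL14 state (20.2 to 33.7) and 5.34% of 172 in the DEFB1-CD44 state (2.42 to 9.70), with 4 of 39 and 0 of 26 single counts, whose intervals overlapped (2.87 to 24.2% and 0 to 13.2%). The MYL6 exon was in 7.43% (6.08 to 8.97) and 2.93% (2.30 to 3.73) of counts, and in 1 of 11 single counts of the CXCL14 state, while no barcode of the DEFB1-CD44 state had a single MYL6 count. Over all counts, both states stayed far below the other lines in the MYL6 exon.

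The genes whose levels most resembled the 3 widest members were found among 8486 genes with at least 100 counts, by the distance of centred log2 (CPM + 1) over 4 groups: the SK-OV-3-like line, the RARRES2-high line and both FOLR1-high states. For MYL9 they were CLDN16, FKBP10 and SMARCC1 (distances 0.46, 0.56 and 0.58), for CALD1 TXNRD2, MXRA7 and CCDC86 (0.26, 0.26 and 0.27), and for ACTN1 TAOK3, THRA and MICAL2 (0.09, 0.12 and 0.20). With 4 groups from 1 library this is a description alone. Counts lost to near copies were checked by name: MYL6P1 to MYL6P5, ACTN4P1, ACTN4P2, SVILP1 and SVIL-AS1 had 0 counts, and ACTN1-AS1 had 1. MYL6B, a paralogue of MYL6 with an entry of its own, had 469.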

How the data were processed

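Per the series' design text, the authors quantified PromethION reads with Isosceles and deposited estimated counts per transcript and cell barcode, not normalised. These deposited expected counts are fractions where a read was shared between transcripts and whole per gene and barcode. The barcode lists the authors deposited hold no measured values. GRCh38 and Cell Ranger 6.0.1 are named, per the submitters' processing notes, with no role. The sources used here do not name the aligner, the annotation release or the UMI handling.

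Counts were summed per gene entry and line and divided by the total of the line (CPM, counts per 1000000). Levels have exact Poisson intervals, shares Clopper-Pearson intervals and ratios exact conditional binomial intervals, all at 95%, rounding estimated counts to whole numbers. With 1 library there was no test between lines, and cells are not replicates. A level of 0 allows 3 counts, or 0.871, 0.888 and 0.664 CPM in the SK-OV-3-like, RARRES2-high and FOLR1-high lines. Ratios were taken for genes with at least 50 counts in the pair and transcript shares for genes with at least 50 in both lines. The 722 entries that join several genes were left out of shares. A single count was called unshared when its estimates lay within 0.01 of 0 or 1. Exons came from GENCODE release 29 (GRCh38), matched by transcript identifier. Doublets stayed in; Scrublet (scanpy 1.11.5, rate 0.02) called 76, left out in an alternative. Tools were numpy 2.4.6, scipy 1.17.1, pandas 2.3.3 and matplotlib 3.10.9, and the scripts were tested on simulated data.

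All 9 genes are named, with each exon or start that differed by 10 points or more between lines and each transcript with at least 10% of the counts that bears on it, and up to 4 other pathway genes each way with the largest ratios. The exons of ACTN1, VCL and FLNA and genes such as MYH10, MYL12A, MYL12B, TLN1 and SRF were added after their values were seen. RHOC has no entry of its own, which leaves 74 of the 75 pathway genes. The members and lists were chosen with earlier results of these data known. Alternatives varied the line rule, depth limit, doublets, scaling, weighting, thresholds and shared reads.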

Additional observations from a re-analysis of the deposited data

Results flagged for a closer look

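The 333 barcodes with fewer than 1000 counts belong to no line. In them 3 counts of 110420 make a limit of 27.2 CPM, and how many of all genes pass it was not counted. MYL6 stood at 1141 CPM (951 to 1359), FLNA at 362, CALD1 at 299, ACTN4 at 289.8, VCL at 181, MYH9 and ACTN1 at 118 each, and SVIL at 54.3. MYL9 had 0 counts there. Mitochondrial genes held 27.4% of the counts of these barcodes, against 2.93% to 7.07% in the lines.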

How the results depend on the processing

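No paired analysis was possible because the pool gave 1 long-read library with no replicate numbers. Of 84 counts of genes under alternatives, 73 stayed within 1.5 times the main count. Of 325 single values, 89 lay outside the interval of the main value. Among them were 35 of 161 ratios and 13 of 120 transcript shares. The others were 26 of 27 shares of barcodes with a count and 15 of 17 exon shares. No called ratio or called transcript share difference reversed its direction. A reversal could not be scored for uncalled values, for shares of barcodes or for exon shares. The 32 pathway genes past 2-fold between SK-OV-3-like and FOLR1-high became 18 with the median ratio set to 1 and 18 without mitochondrial and ribosomal protein genes, by construction of a scaling that shifts every ratio. With a fold of 1.5 the pathway count between SK-OV-3-like and RARRES2-high was 33 (beside 55.8% of all genes), and with a fold of 3 the pathway counts were 6, 13 and 16 in the order of the pairs (beside 16.5%, 16.8% and 18.6%), and the 5 genes of the set between SK-OV-3-like and FOLR1-high became 3. With a limit of 10 points, 2 genes of the set passed between SK-OV-3-like and FOLR1-high and 4 between RARRES2-high and FOLR1-high (beside 12.1% and 15.3% of genes); with 30 points it was 0 and 1 (beside 0.559% and 1.04%). CALD1 in SK-OV-3-like over FOLR1-high lay at the 2-fold limit, with a log2 ratio of -1.02, and at -0.97 as a mean of CPM per barcode. With 90% of the marker counts required, MYL9 fell under 50 counts in the first pair and was not tested. Depth limited MYL9 and SVIL most in the SK-OV-3-like line, with 5 and 84 counts. Exon shares read from unshared single counts rest on as few as 8 counts. The cause of the gap between shared and unshared readings was not tested.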
